A study of Mus musculus with 21 samples.

Results

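A set of 7 genes that mark Cajal-Retzius cells was followed through RNA sequencing of mouse forebrain and kidney at embryonic day 14.5: Reln, Trp73, Lhx5, Lhx9, Ebf2, Ebf3 and Calb2. They were taken by gene symbol from the 23827 rows of each expression table, each symbol occupied a single row, and all 7 were found. Reads per gene and RPKM (reads scaled to transcript length and to mapped reads, a level per length) were available for 21 samples in 7 groups of 3 replicates. In translating ribosome affinity purification (TRAP), cells that express Cre recombinase make the ribosomal protein Rpl10a with an mCherry tag, and the RNA bound to tagged ribosomes (the translatome) is pulled down and sequenced, whereas total RNA of the same organ is the transcriptome. Sox2Cre+/-;Gt(ROSA)26Sor-mCherry-Rpl10a+/- embryos gave the transcriptome and the translatome of the forebrain and of the kidney.

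The endothelial translatomes of forebrain (brain EC) and kidney (kidney EC) came from Cdh5CreERT2+/-;Gt(ROSA)26Sor-mCherry-Rpl10a+/- embryos, and the Emx1-lineage translatome of the forebrain from Emx1Cre+/-;Gt(ROSA)26Sor-mCherry-Rpl10a+/- embryos. Every group therefore carried 1 copy of the Cre-dependent mCherry-Rpl10a allele, which a ubiquitous promoter drives once Cre has acted. Sox2Cre recombines in the whole embryo proper, Emx1Cre in the lineage of the dorsal telencephalon, and Cdh5CreERT2 in endothelium after tamoxifen, so each translatome is meant to hold RNA of the recombined cells and their descendants. Each sample was made from the tissue of a single embryo or of a pair of embryos, the dissected forebrain also included part of the diencephalon, and the p-values measure the spread between these samples. The brain EC, kidney EC and Emx1-lineage libraries were each sequenced on a lane of their own according to the study's sample list, so lane and group cannot be told apart in any comparison with them.

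Cajal-Retzius cells are early-born neurons of the outermost (marginal) layer of the developing cortex, and they arise at the borders of the pallium, above all at the cortical hem, and in the septum and ventral pallium. They secrete reelin, the large extracellular glycoprotein encoded by Reln, which binds the receptors Vldlr and Lrp8 (ApoER2) on migrating neurons and leads to phosphorylation of the adaptor Dab1 by Src family kinases, a signal needed for cortical layering. Trp73 encodes p73, a member of the p53 family that these cells need to survive. Lhx5 and Lhx9 are LIM homeodomain factors, Ebf2 and Ebf3 are helix-loop-helix factors of the early B-cell factor family, and Calb2 encodes calretinin, an EF-hand calcium-binding protein. None of the genes is particular to these cells: Lhx5 and Lhx9 are used in the diencephalon, Ebf genes in mesenchyme, Calb2 in many neurons, and Reln is also made by other neurons and by lymphatic endothelium.

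On the GRCm38.p6 assembly, as annotated by RefSeq, Reln lay at chr5:21884454-22344705 on the minus strand and Trp73 at chr4:154056249-154139875 on the minus strand. Lhx5 lay at chr5:120431886-120441457 (plus strand), Lhx9 at chr1:138825186-138848839 (minus), Ebf2 at chr14:67233292-67430952 (plus), Ebf3 at chr7:137193671-137322805 (minus) and Calb2 at chr8:110142526-110168212 (minus), all as protein-coding genes. In the GENCODE annotation of the same build, the exons of Reln, Trp73, Lhx5, Ebf2 and Ebf3 shared between 69 bases (Lhx5) and 424 bases (Ebf2) with an annotated antisense RNA that had no row of its own in the tables, and because the library kit does not mark strand, reads from both would be counted together.

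The RefSeq promoter table held 250-base windows upstream of the starts of Reln, Trp73, Lhx9 and Ebf3; no window is shown for Lhx5, Ebf2 and Calb2. The windows of Reln and Trp73 are printed because these genes shared the direction of their difference in the Emx1-lineage and parted in brain EC. Trp73 has an upstream and an internal start, which give p73 with and without its transactivation domain, and reads summed over the gene do not separate them. Sequences run 5′ to 3′ on the coding strand, with GC boxes (GGGCGG), ETS sites (CCGGAAG) and the E-box CAGCTG, searched on both strands, in capitals.

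Reln, chr5:22344706-22344955, minus strand: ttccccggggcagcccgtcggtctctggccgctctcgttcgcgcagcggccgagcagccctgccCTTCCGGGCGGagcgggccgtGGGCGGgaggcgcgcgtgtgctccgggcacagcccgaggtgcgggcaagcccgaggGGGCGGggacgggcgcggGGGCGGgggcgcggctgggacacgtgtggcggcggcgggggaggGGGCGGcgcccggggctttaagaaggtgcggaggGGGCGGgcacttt

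Trp73 upstream start, chr4:154139876-154140125, minus strand: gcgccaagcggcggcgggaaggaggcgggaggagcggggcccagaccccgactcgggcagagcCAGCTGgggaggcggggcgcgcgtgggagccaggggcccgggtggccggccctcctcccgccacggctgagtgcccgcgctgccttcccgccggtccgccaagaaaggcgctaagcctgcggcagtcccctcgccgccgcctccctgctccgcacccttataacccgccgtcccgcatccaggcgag

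Trp73 internal start, chr4:154097174-154097423, minus strand: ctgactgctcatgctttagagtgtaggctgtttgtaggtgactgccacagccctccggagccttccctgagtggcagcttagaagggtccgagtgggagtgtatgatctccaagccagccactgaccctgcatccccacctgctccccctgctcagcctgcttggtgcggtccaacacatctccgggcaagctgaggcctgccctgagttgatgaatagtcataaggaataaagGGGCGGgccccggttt

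The Reln window was 80.0% G and C with 37 CpG dinucleotides, against a median of 52.4% and 6 CpG over 32851 mouse promoter windows. It held 6 GC boxes, a motif present in 32.74% of all windows, and 1 ETS site, present in 6.91%, which overlapped the first GC box. The upstream Trp73 window was likewise rich in CpG (31, at 77.2% G and C) and held 1 CAGCTG E-box, found in 13.0% of windows, whereas the internal window had 6 CpG at 58.4% and 1 GC box. The Ebf3 window, not printed, was also 80.0% G and C, with 43 CpG and 3 GC boxes. These matches describe the letters and not bound sites.

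The libraries held 21760652 to 79231692 counted reads, with 43190754 in the middle of that order, and those of the kidney translatome held the fewest. The groups matched their labels: in brain EC all 8 endothelial markers (among them Cdh5, Pecam1 and Kdr) were higher than in the brain translatome with a median log2 fold change of 4.48, and all 5 neuronal markers (Tubb3, Dcx, Stmn2, Elavl3, Elavl4) were lower with a median of -1.85, against -0.01 over all rows tested. In the Emx1-lineage all 8 dorsal telencephalic markers were higher (median 1.05), all 8 subpallial markers (median -1.95) and all 8 endothelial markers (median -3.97) were lower, and the median over all rows was 0.00. In kidney EC the 8 endothelial markers were likewise higher than in the kidney translatome and all 9 markers of nephron, ureteric bud and kidney stroma were lower; the latter summed to 488 to 515 RPKM in the kidney transcriptome and to 7.47 to 10.6 in that of the brain. Neural crest and Schwann cell markers summed to at most 9.17 RPKM in any library. A gene was called when the Benjamini-Hochberg adjusted p-value of edgeR's quasi-likelihood test over all rows was under 0.001.

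**Figure D1:**
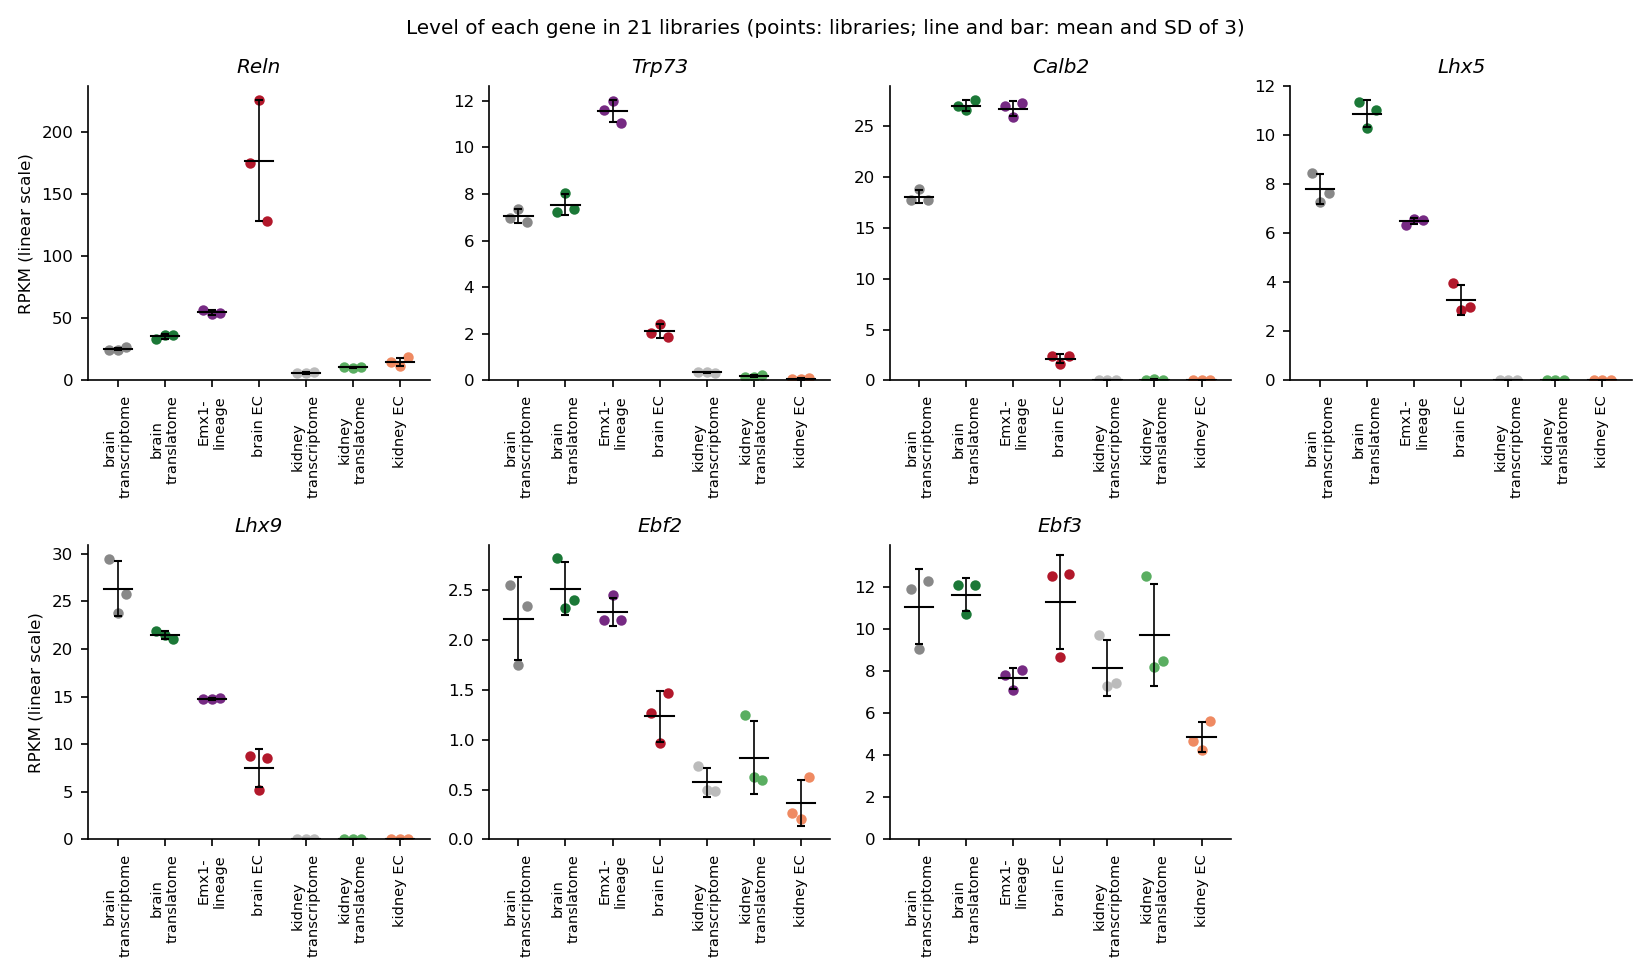
RPKM (linear y axes starting at 0) of each gene in the 21 libraries, grouped on the x axis, where points are libraries and black lines with bars are the mean and SD of 3. Reln is highest in brain EC, Trp73 in the Emx1-lineage, and Calb2, Lhx5 and Lhx9 lie near 0 in all 9 kidney libraries, while Ebf3 is seen in every group.

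The 7 genes belonged to the brain in unequal degree. Between the brain and the kidney transcriptome, 6 of 7 were higher in brain, where 27.2% of all rows were called higher in brain and 26.3% lower. Lhx5, Lhx9 and Calb2 were almost unread in kidney: Lhx5 had 1 read in the 3 kidney transcriptome libraries together and 3189 in brain, a ratio per total reads of 2605.4 with an exact 95% interval of 467.3 to 102938.2 that covers counting error only. Lhx9 had 8 reads in the kidney and 12222 in the brain transcriptomes (ratio 1248.1, 633.2 to 2891.7), and Calb2 had 6 against 3903 (531.4, 243.9 to 1449.0). Trp73 was higher in brain by 4.43 ± 0.09 on the log2 scale (SE; edgeR adjusted p = 9.09e-12), Reln by 2.21 ± 0.07 (adjusted p = 1.62e-10) and Ebf2 by 2.11 ± 0.19 (adjusted p = 2.09e-06). Ebf3 had a log2 difference of 0.62 ± 0.14 that was not called (adjusted p = 0.0018), and its kidney transcriptome values of 9.69, 7.31 and 7.43 RPKM overlapped the brain values of 11.9, 9.02 and 12.3. It was called with DESeq2 (0.63, adjusted p = 8.98e-06) and without brain transcriptome replicate 2 (0.75, adjusted p = 0.000232) or kidney transcriptome replicate 1 (0.78, adjusted p = 0.000155). In these bulk samples, fewer cells of a type and less RNA per cell cannot be told apart.

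Reln, the ligand, had its highest levels in endothelial RNA. Its RPKM was 175, 226 and 129 in brain EC, 56.9, 53.2 and 53.9 in the Emx1-lineage, 33.4, 36.8 and 36.5 in the brain translatome and 24.9, 24.3 and 26.5 in the brain transcriptome. In kidney it was 14.7, 12.0 and 18.6 in the EC, 10.8, 9.70 and 10.9 in the translatome and 5.69, 6.12 and 6.97 in the transcriptome. The groups followed each other in that order without overlap between any neighbours, and the 3 brain EC libraries differed most among themselves. Reln was higher in brain EC than in the brain translatome by 2.60 ± 0.16 on the log2 scale (adjusted p = 1.1e-08), the only one of the 7 genes called higher there, where 24.8% of all rows were called higher and 21.4% lower (3397 rows higher and 6002 lower with total counts, against 4740 and 4084).

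The neuronal markers in brain EC stood at 13.1% to 29.6% of their mean RPKM in the brain translatome, whereas Reln stood at 495.8% and the endothelial markers at 1271.9% to 2227.4%. Of 10 mural and fibroblast markers in brain EC, 4 were higher (Cspg4, Col1a1, Col3a1, Dcn) and 5 lower (Pdgfrb, Rgs5, Kcnj8, Abcc9, Acta2), with the call of Col1a1 lost under total counts, and their summed RPKM of 140 to 219 reached above the 136 to 160 of the brain translatome. Lymphatic markers summed to 51.9 to 55.8 RPKM in brain EC and 32.8 to 41.0 in the translatome, with Flt4 (VEGFR3, also present in growing blood vessels) higher by 4.65 ± 0.08 (adjusted p = 3.97e-13), Prox1 lower by 0.88 ± 0.10 (adjusted p = 3.09e-06), Pdpn lower by 0.72 ± 0.13 (adjusted p = 0.000272), Lyve1 at -0.28 ± 0.11 (adjusted p = 0.0492) and Ccl21a at 0 in every library. The part of these cells in the Reln value was not tested.

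In the kidney EC Reln was higher than in the kidney translatome by 0.89 ± 0.14 (adjusted p = 0.000207). There 16.7% of all rows were higher and 15% lower (1564 and 5655 rows with total counts, against 3163 and 2837). Reln was the only one of the 7 genes called in kidney EC, where Lhx5, Lhx9 and Calb2 had too few reads for a fold change. The call was lost when total counts without composition factors scaled the libraries (0.52, adjusted p = 0.00391) and when replicate 3 of the kidney translatome was left out (0.92, adjusted p = 0.00229). Lymphatic markers were at 77.0 to 85.7 summed RPKM in kidney EC and 27.2 to 32.4 in the kidney translatome, of which Flt4 and Lyve1 were higher (Lyve1 not with total counts) and Pdpn lower, and Prox1 had a log2 difference of 1.23 ± 0.25 (adjusted p = 0.00158). The endothelial difference in Reln was larger in brain than in kidney by 1.74 ± 0.24 on the log2 scale (interaction term over 12 samples, adjusted p = 1.49e-05). In that test 16.5% of all rows were called higher and 8.6% lower (3401 and 2724 rows with DESeq2, against 3258 and 1700), and all 8 endothelial markers were higher too. Reln was the only one of the 7 genes called, and Ebf3 had a difference of 0.92 ± 0.23 (adjusted p = 0.0035), called without brain EC replicate 2 (1.07, adjusted p = 0.000399). Directly compared, brain EC exceeded kidney EC in Reln by 3.59 ± 0.23 (adjusted p = 1.94e-07).

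The receptors and adaptors of reelin were called in both directions in brain EC. Of 14 pathway genes, 4 were higher and 3 lower than in the brain translatome, with a median log2 fold change of 0.06, shares near the 24.8% and 21.4% over all rows; with total counts 2 were higher and 5 lower, with a median of -0.24. Lrp8, one of the receptors, had 96.5 to 117 RPKM in brain EC and 36.7 to 43.7 in the translatome, without overlap, and was higher by 1.67 ± 0.10 (adjusted p = 4.9e-09). Vldlr, the other receptor, fell by 0.82 ± 0.10 (adjusted p = 7.93e-06) and Dab1, the intracellular adaptor, by 1.47 ± 0.13 (adjusted p = 3.28e-07), from 43.3 to 46.9 RPKM in the translatome to 10.1 to 15.1 in brain EC. The GTPase Rap1a was higher by 1.21 ± 0.08 (adjusted p = 1.21e-08), the adaptor Crk by 0.45 ± 0.08 (adjusted p = 0.000154) and the reelin-cleaving protease Adamts2 by 1.14 ± 0.20 (adjusted p = 0.000238), and the calls of Crk and Adamts2 were lost with total counts. The related protease Adamts3 was lower (-0.83 ± 0.08, adjusted p = 1.24e-06). In kidney EC, where Reln was 15.1 ± 3.33 RPKM (SD, n = 3), 4 of the 14 were higher (Lrp8, Fyn, Rapgef1, Rap1a) and 3 lower (Vldlr, Dab1, Src), with Lrp8 at 5.06 ± 0.28 RPKM; the calls of Lrp8 and Rapgef1 were lost with total counts.

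In the Emx1-lineage, Reln was higher than in the brain translatome by 0.67 ± 0.05 (adjusted p = 5.98e-08), and its 3 Emx1-lineage values of 53.2 to 56.9 RPKM lay above all translatome values. In that comparison 9.2% of all rows were called higher and 12.8% lower. Of the 14 pathway genes 4 were higher there, namely Dab1 by 0.65 ± 0.06 (adjusted p = 7.05e-07), the kinase Fyn, the adaptor Crkl and Adamts3 by 0.98 ± 0.06 (adjusted p = 1.03e-08), and Adamts2 was lower (-0.69 ± 0.13, adjusted p = 0.000659). Vldlr and Lrp8 had log2 differences of 0.05 ± 0.05 and 0.13 ± 0.06 that were not called. The plot of the reelin pathway sets both comparisons, which share the 3 brain translatome libraries, side by side.

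**Figure D2:**
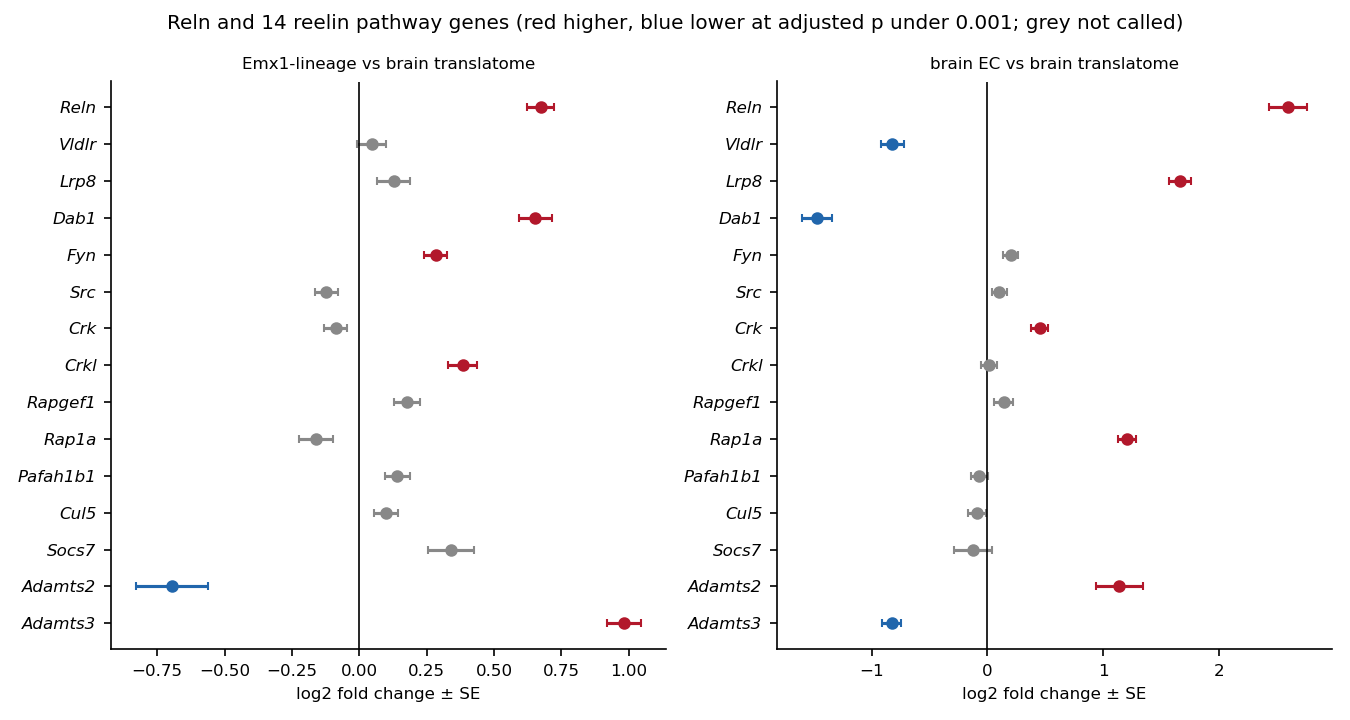
Log2 fold change (x axes, ± SE of the edgeR fit on 3 against 3 samples) of Reln and 14 reelin pathway genes (rows) in the Emx1-lineage (left) and brain EC (right) against the brain translatome, with red and blue for genes called higher and lower and grey for those not called. Reln (2.60) and Lrp8 (1.67) are the highest in brain EC while Dab1 (-1.47) is the lowest; in the Emx1-lineage Adamts3 (0.98), Reln (0.67) and Dab1 (0.65) lead.

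Trp73, the p53 family member, was highest in the Emx1-lineage. It had 11.6, 12.0 and 11.1 RPKM there, 7.23, 8.04 and 7.36 in the brain translatome, 6.99, 7.37 and 6.80 in the brain transcriptome and 2.05, 2.43 and 1.88 in brain EC. The translatome and transcriptome overlapped, and the other brain groups stood apart. Emx1-lineage RNA exceeded the brain translatome by 0.67 ± 0.06 (adjusted p = 3.06e-07), and brain EC was below it by a log2 difference of -1.54 ± 0.10 (adjusted p = 1.26e-08). The neuronal markers kept 13.1% to 29.6% of their translatome level in brain EC. Calb2 (7.9%) stood below that range, and Lhx5 (30.1%), Lhx9 (34.8%), Ebf2 (49.1%), Ebf3 (96.9%) and Reln (495.8%) stood above it. Trp73 stood inside it at 28.1%, and what part carry-over of neuronal RNA had in these values was not tested. Its relative Trp53 went the other way in brain EC (74.1 ± 0.25 against 39.3 ± 1.93 RPKM, SD, n = 3, adjusted p = 1.66e-09) and was higher in the Emx1-lineage by 0.38 ± 0.05 (adjusted p = 1.41e-05), whereas Trp63 was at most 0.132 RPKM in the 12 brain libraries.

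In kidney, Trp73 was low: 0.37, 0.36 and 0.32 RPKM in the transcriptome, 0.15, 0.17 and 0.22 in the translatome and 0.05, 0.06 and 0.12 in the EC, from 209, 60 and 40 reads in all. The 3 groups did not overlap. The translatome was below the transcriptome by a log2 difference of -0.96 ± 0.24 that was not called (adjusted p = 0.00569). With the paired tissue samples as a block its adjusted p was 4e-05 (-0.98), but edgeR gave that fit infinite prior degrees of freedom, so its p-values may be too small. In 1 fit of all 21 samples it was called too (-0.97, adjusted p = 0.000183). The brain and kidney differences between translatome and transcriptome (0.13 ± 0.07 and -0.96) differed by 1.09 ± 0.18 (interaction, adjusted p = 0.000526). It was the only one of the 7 genes called, with 2.35% of all rows called higher and 4.12% lower, and the call was lost in 9 of the 12 fits that left out a library, with adjusted p up to 0.00241. With the tissue sample as a block the difference was 1.10 (adjusted p = 5.49e-05), in a fit that called 1467 rows higher and 1978 lower where the fit without the block called 472 and 829.

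Calb2, which encodes calretinin, had the lowest log2 difference of the 7 genes in brain EC. Its RPKM was 26.9, 26.5 and 27.5 in the brain translatome, 27.0, 25.9 and 27.3 in the Emx1-lineage, 17.7, 18.8 and 17.7 in the brain transcriptome and 2.39, 1.64 and 2.38 in brain EC. Translatome and Emx1-lineage overlapped, and both stood above the transcriptome. Brain EC was below the translatome by a log2 difference of -3.36 ± 0.13 (adjusted p = 6.42e-11), which left 7.9% of the translatome level, less than any of the 5 neuronal markers kept. The Emx1-lineage differed from the translatome by 0.04 ± 0.05 (adjusted p = 0.569). Calb1, which encodes the related buffer calbindin, was lower in the Emx1-lineage (-1.46 ± 0.09, adjusted p = 4.36e-09) and in brain EC (-2.20 ± 0.14, adjusted p = 1.51e-08), and Pvalb was at most 0.0725 RPKM in any library. The 9 kidney libraries held 0 to 6 reads of Calb2 each, and no fold change is given between kidney groups for Calb2, Lhx5 or Lhx9, which had fewer than 10 reads in every kidney library.

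The LIM homeodomain factors Lhx5 and Lhx9 were both lower in the Emx1-lineage, in contrast to Reln and Trp73. Lhx5 had 11.4, 10.3 and 11.0 RPKM in the brain translatome, 8.47, 7.26 and 7.66 in the transcriptome, 6.36, 6.60 and 6.54 in the Emx1-lineage and 3.97, 2.89 and 2.98 in brain EC, with no overlap between neighbours. The Emx1-lineage was below the translatome by a log2 difference of -0.69 ± 0.06 (adjusted p = 5.08e-07) and brain EC by -1.44 ± 0.12 (adjusted p = 1.31e-07). Lhx9 had 29.5, 23.7 and 25.8 RPKM in the transcriptome, 21.9, 21.5 and 21.1 in the translatome, 14.8, 14.7 and 14.9 in the Emx1-lineage and 8.73, 5.15 and 8.57 in brain EC, again without overlap. It was lower than in the translatome by -0.54 ± 0.05 in the Emx1-lineage (adjusted p = 3.73e-07) and by -1.25 ± 0.15 in brain EC (adjusted p = 7.36e-06). The Emx1-lineage call of Lhx9 was lost in 1 fit of all 21 samples (adjusted p = 0.00201). Of 10 other LIM homeodomain genes, 1 was higher and 5 were lower in the Emx1-lineage: Lhx2, a selector of the cortex, was higher by 0.79 ± 0.05 (adjusted p = 3.83e-09), while Lhx6 and Lhx8 of the ventral telencephalon had log2 differences of -2.49 ± 0.06 and -2.96 ± 0.08 (adjusted p = 2.74e-13 and 9.5e-13), and Lhx1, Isl1 and Lmx1b were also lower.

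Lhx5 and Lhx9 kept 59.7% and 68.7% of their translatome level in the Emx1-lineage. Markers of the diencephalon, where both genes are also used, kept 14.6% to 24.2% there apart from Barhl2 at 77.3%. Of these, 7 of 8 were called lower (median log2 fold change -2.30). Markers of the cortical hem, a source of Cajal-Retzius cells, stood at 61.6% to 130.4% (8 genes above 0.5 RPKM in the translatome), with 2 of 9 called higher (Wnt8b, Rspo3) and none lower (median 0.18). The call of Wnt8b was lost with relative log expression factors and with total counts, and that of Rspo3 with total counts. The diencephalic marker Barhl2, a homeodomain factor, kept the most of its list (77.3%) and was not called (-0.32 ± 0.11, adjusted p = 0.0293). The part of diencephalic cells in the Lhx5 and Lhx9 values was not tested.

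The EBF family members differed between themselves. Ebf2 was weakly read at 2.82, 2.32 and 2.40 RPKM in the brain translatome, 2.20, 2.45 and 2.20 in the Emx1-lineage, 2.55, 1.75 and 2.34 in the transcriptome and 1.27, 0.96 and 1.47 in brain EC. The first 3 groups overlapped and brain EC lay below them. Brain EC had a log2 difference from the translatome of -0.74 ± 0.15 (adjusted p = 0.000687), and this call was lost without replicate 1 or 3 of the translatome or replicate 1 of brain EC (adjusted p = 0.00175 to 0.011), with a minimum of 10 counts in 3 samples (0.00122) and in a single fit of all 21 samples (0.0172). In the Emx1-lineage the difference was -0.09 ± 0.09 (adjusted p = 0.443). Kidney values were 0.74, 0.50 and 0.48 RPKM in the transcriptome, 1.24, 0.62 and 0.59 in the translatome and 0.26, 0.20 and 0.63 in the EC. All kidney groups overlapped their neighbours.

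Ebf3 was read at several RPKM in the kidney as well as in the brain. It had 12.1, 10.7 and 12.1 RPKM in the brain translatome, 11.9, 9.02 and 12.3 in the transcriptome, 12.5, 8.69 and 12.6 in brain EC and 7.79, 7.10 and 8.05 in the Emx1-lineage. In kidney it had 9.69, 7.31 and 7.43 in the transcriptome, 12.5, 8.18 and 8.45 in the translatome and 4.69, 4.24 and 5.63 in the EC, the only group below all others. The Emx1-lineage was below the brain translatome by a log2 difference of -0.55 ± 0.07 (adjusted p = 7.92e-06), a call lost in 1 fit of all 21 samples (adjusted p = 0.0109). In brain EC the difference of 0.24 ± 0.12 was not called (adjusted p = 0.107), was -0.06 with total counts, and was called without replicate 2 of brain EC (0.40, adjusted p = 0.000196). Kidney EC had a difference of -0.65 ± 0.16 from the kidney translatome (adjusted p = 0.00534), and brain EC exceeded kidney EC by 1.26 ± 0.15 (adjusted p = 3.39e-05). Ebf1, their relative, had 15.6 ± 1.48 RPKM in brain EC and 15.1 ± 0.99 in the translatome and fell by 1.21 ± 0.07 in the Emx1-lineage (adjusted p = 3.54e-09). Mural and fibroblast markers were all 10 lower in the Emx1-lineage, where their summed RPKM was 32.2 to 38.6 against 136 to 160 in the translatome. Their part in the Ebf3 and Ebf1 values was not tested.

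Counted together, the 7 genes split in the Emx1-lineage into 2 higher (Reln, Trp73), 3 lower (Lhx5, Lhx9, Ebf3) and 2 not called (Ebf2, Calb2), where 9.2% and 12.8% of all rows were called (1183 and 2778 rows with total counts, against 1749 and 2442), and their median log2 fold change was -0.09 against 0.00 over all rows. In brain EC 1 was higher, 5 were lower and Ebf3 was not called, where 24.8% of all rows were called higher and 21.4% lower. The median of the 7 genes there was -1.25, against -0.01 over all rows. Of 8 other genes found in Cajal-Retzius cells, 2 were higher in brain EC, the chemokine receptor Cxcr4 by 1.98 ± 0.09 (adjusted p = 5.76e-10) and Ndnf by 0.81 ± 0.14 (adjusted p = 0.000176, not called with total counts), and 5 were lower, and the list's median was -0.85. In the Emx1-lineage 1 of the 8 was higher, Tbr1, a factor shared with deep-layer projection neurons (1.13 ± 0.05, adjusted p = 1.27e-10), and 4 were lower (Cxcr7, Cacna2d2, Car10, Lhx1), with a median of -0.14. The plot of the 7 genes beside the marker lists shows both comparisons.

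**Figure D3:**
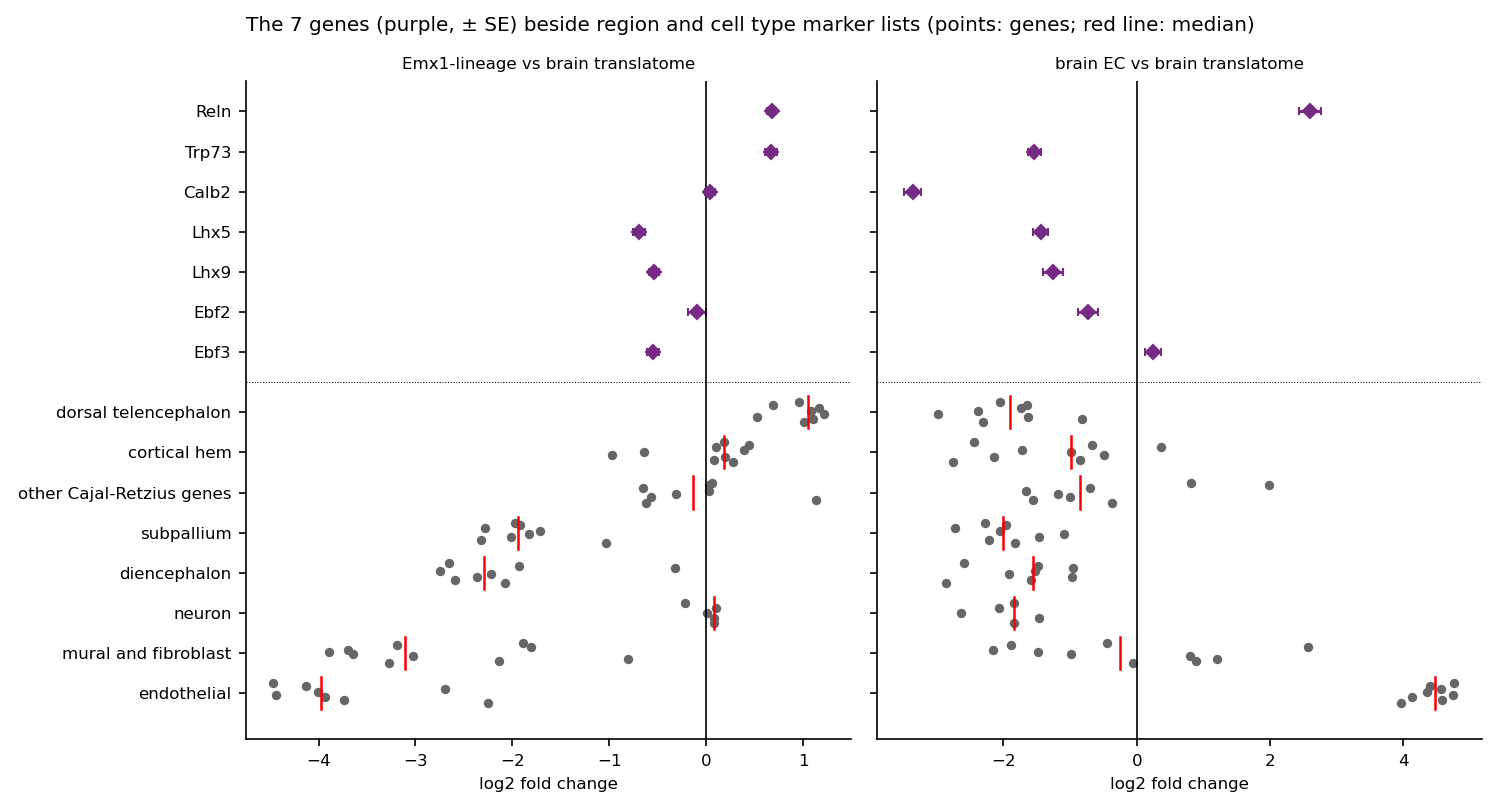
Log2 fold change against the brain translatome (x axes) in the Emx1-lineage (left) and brain EC (right), for the 7 genes (purple, ± SE) and for genes of 8 marker lists (grey points, red line at the list median). In the Emx1-lineage Reln and Trp73 (0.67 each) lie between the hem (0.18) and dorsal telencephalic (1.05) medians, and Lhx5, Lhx9 and Ebf3 (-0.69 to -0.54) lie above the diencephalic median (-2.30); in brain EC Reln (2.60) is the only one of the 7 far to the right, below the endothelial markers (median 4.48).

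The translatome of the whole forebrain was set against its transcriptome. The paper could not fully exclude bias here, since promoter activity or native Rpl10a levels may differ between cell types. Medians of the gene lists in this comparison ran from -0.56 (neural crest and Schwann) to 0.51 (endothelial). The part of uneven tagging in the values of the 7 genes was not tested. Reln, Lhx5 and Calb2 were higher in the translatome, by 0.52 ± 0.06 (adjusted p = 4.34e-06), 0.51 ± 0.08 (adjusted p = 7.54e-05) and 0.61 ± 0.07 (adjusted p = 2.28e-06), and none of the 7 was lower, with 18.6% of all rows called higher and 18.5% lower. The median of the 7 was 0.22, and that of all rows -0.01. All translatome values of these 3 genes lay above all transcriptome values. The 3 translatome libraries shared a lane with transcriptome replicate 1, which had 24.9 (Reln), 8.47 (Lhx5) and 17.7 RPKM (Calb2). The part of the lane in these differences was not tested. The call of Lhx5 was lost without replicate 1 of the translatome (0.45, adjusted p = 0.0011). In 1 fit of all 21 samples the calls of Reln and Lhx5 were lost (adjusted p = 0.0062 and 0.00101). Lhx9 had a difference of -0.24 ± 0.06 (adjusted p = 0.00283) that was called with the tissue sample as a block (-0.24, adjusted p = 0.000546) and without replicate 2 of the transcriptome (-0.30, adjusted p = 0.000539). The receptors Lrp8 and Vldlr were lower in the translatome by -0.50 ± 0.07 and -0.41 ± 0.07 (adjusted p = 2.47e-05 and 7.54e-05) and Dab1 was higher by 0.33 ± 0.06 (adjusted p = 0.000409). In kidney, Reln was likewise higher in the translatome by 0.75 ± 0.07 (adjusted p = 1.03e-05), the only one of the 7 called, with 14.9% of all rows higher and 15.8% lower. Kidney translatome replicate 3, at 10.9 RPKM of Reln, shared a lane with the 3 transcriptome libraries (5.69 to 6.97), and the part of the lane was not tested here either. With the paired kidney samples as a block, the fit whose p-values may be too small, 3 passed the threshold as higher (Reln, Ebf2 at 0.52 with adjusted p = 0.000431, and Ebf3 at 0.25 with adjusted p = 1.82e-06) and Trp73 lower.

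**Figure D4:**
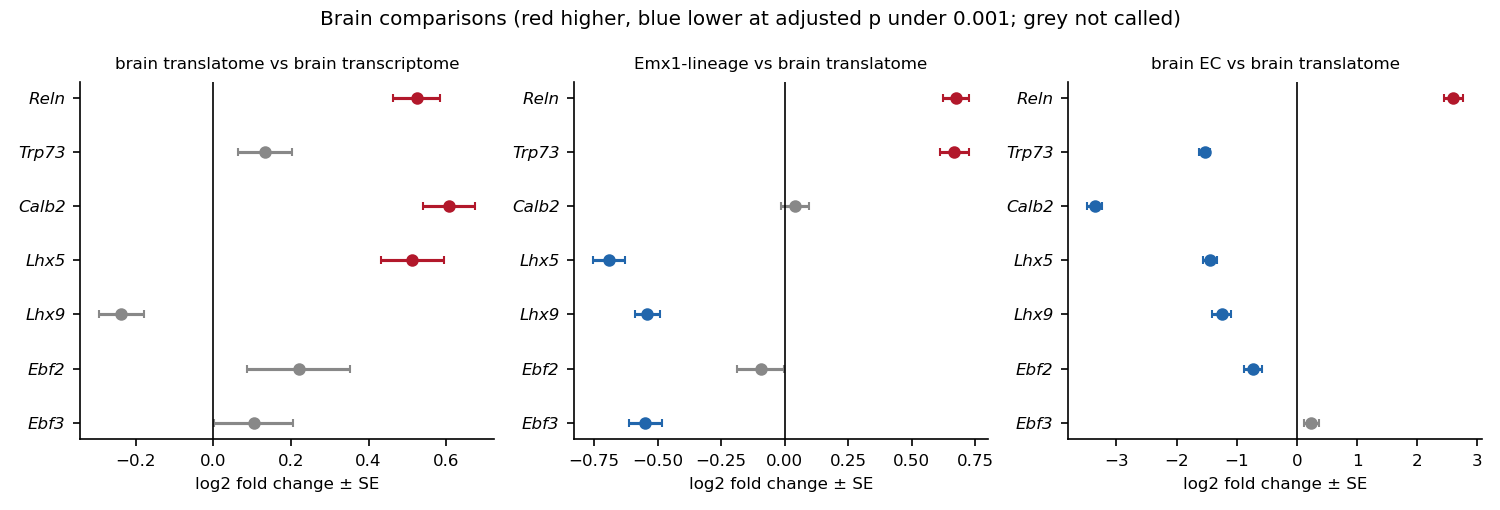
Log2 fold change (x axes, ± SE, 3 against 3 samples) of the 7 genes (rows) in the brain translatome against its transcriptome (left), the Emx1-lineage (middle) and brain EC (right) against the brain translatome, with red and blue for genes called higher and lower and grey for those not called. Differences on the left stay between -0.24 and 0.61, whereas in brain EC they span -3.36 to 2.60.

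Because translatome and transcriptome differ, the choice of reference moved some values. Against the brain transcriptome, 3 of the 7 were higher in the Emx1-lineage: Reln by 1.27 ± 0.05 (adjusted p = 1.04e-11), Trp73 by 0.88 ± 0.06 (adjusted p = 1.74e-09) and Calb2 by 0.72 ± 0.06 (adjusted p = 2.49e-08), with 25.4% of all rows called higher and 23.8% lower. Lhx9 alone was lower (-0.70 ± 0.05, adjusted p = 1.36e-08), while Lhx5 and Ebf3, at -0.10 ± 0.07 and -0.37 ± 0.09, were not called (adjusted p = 0.231 and 0.00266). In brain EC, Reln exceeded the transcriptome by 3.14 ± 0.17 (adjusted p = 3.03e-09), the only one called higher, and Trp73, Lhx5, Lhx9 and Calb2 were lower, with 26.8% of rows higher and 24.3% lower. In kidney EC, Reln was higher by 1.70 ± 0.15 (adjusted p = 4.31e-06) and Trp73 lower (-1.89 ± 0.29, adjusted p = 0.000276), with 22.7% of rows higher and 18.4% lower.

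The 2 endothelial groups also differed in the other genes. Brain EC exceeded kidney EC in 6 of the 7, with 20.1% of all rows called higher in brain EC and 16.9% lower. Trp73 was higher by 4.89 ± 0.23 (adjusted p = 1.98e-08), from 1684 reads in brain EC and 40 in kidney EC, and Lhx5, Lhx9 and Calb2 had 1562, 4064 and 533 reads in brain EC against 1, 8 and 1. Ebf2 had a difference of 1.78 ± 0.34 just short of the threshold (adjusted p = 0.00105), which was called with the replicate number as a block (1.87, adjusted p = 0.000179), with DESeq2 (2.57e-06), relative log expression factors (0.000827), total counts (0.000443) or 1 fit of 21 samples (8.51e-06), and without brain EC replicate 2 (1.93, adjusted p = 0.000878) or kidney EC replicate 3 (2.43, adjusted p = 1.2e-05). All 5 neuronal markers were higher in brain EC too, with a median of 4.48, and their part in these differences was not tested.

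Over the 21 samples, the genes formed patterns by group, measured as Pearson's r of log2(RPKM + 1), which the 7 groups largely set and which is given as a description. Lhx5 and Lhx9 were closest (r = 0.992), followed by Trp73 and Calb2 (r = 0.986), whereas Reln and Ebf3 had lower values with every other of the 7 genes (Reln 0.347 to 0.647, Ebf3 0.347 to 0.662). The search for like genes covered the 14558 rows with a mean of at least 1 RPKM in some group, with the 7 genes then set aside. There the pattern of Reln was most like that of Pcp4l1 (r = 0.988), whose mean RPKM was 28.6 in brain EC, 7.37 in the Emx1-lineage, 5.60 in the brain translatome and 1.62 in kidney EC, and then Rab11fip5 and 9830001H06Rik. Trp73 was most like Dmrta2 (r = 0.998), a cortical hem and pallial factor with 27.9 RPKM in the Emx1-lineage and 15.1 in the brain translatome, and Lhx9 most like Otx2 (r = 0.998), a homeodomain factor with 12.2 RPKM in the translatome and 7.95 in the Emx1-lineage. Lhx5 was most like AI836003, Calb2 like Faim2 and Ebf2 like Cdh8 (r = 0.998, 0.998 and 0.975). Ebf3 had no partner above 0.89 (Asic4).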

How the data were processed

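RNA of 21 samples was made into unstranded libraries and sequenced. The authors mapped the reads to GRCm38 (mm10) with RUM, counted reads per RefSeq gene and computed RPKM with rpkmforgenes; both units were deposited per sample, and the counts are not normalized. RPKM values are printed as deposited. The counts went into quasi-likelihood fits (edgeR 4.0.16, R 4.3.3, TMM factors, genes with at least 1 count, Benjamini-Hochberg adjustment over all genes tested, threshold 0.001): 7 pairwise comparisons on 6 samples each, 2 interaction terms on 12 and, added after the data were seen, 3 comparisons with the transcriptome as reference. SEs were derived from the log2 fold change and its F statistic. Alternatives were DESeq2 1.42.0, relative log expression (RLE) factors, total counts, at least 10 counts in 3 samples, a replicate block, 1 fit of 21 samples, a threshold of 0.05 and leaving out each library. Replicate numbers paired translatome and transcriptome, made from the same tissue samples (correlation of deviations from the group means 0.522 to 0.676 in brain and 0.634 to 0.666 in kidney). For brain EC and kidney EC these correlations were 0.162 to 0.34, and the labels do not say whether equal numbers share embryos. With this block the kidney translatome comparison called 4636 genes higher and 4860 lower, against 2880 and 3049 without it, with infinite prior degrees of freedom, so its p-values may be too small. Sequences came from RefSeq tables. The fits were tested on simulated counts with known changes for the Emx1-lineage, brain EC and organ difference in EC comparisons. They found 41, 33 and 6 of 50 genes changed 1.5-fold, and 95, 90 and 63 of 100 changed 2-fold. Of 50 changed 4-fold they found 50, 50 and 49. False calls numbered 15, 11 and 2 among 18699, 18799 and 19494 rows. Most 1.5-fold changes of the organ difference in EC were missed. The changed genes were drawn from those with a mean of at least 50 reads, with dispersions taken from the fits, so the rates do not cover genes with fewer reads. The organ difference in translatome against transcriptome was not simulated. The 7 genes, the gene lists and the naming rule (the 7, genes of the lists, and the 3 genes most like each) were chosen with earlier results of these data known.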

Additional observations from a re-analysis of the deposited data

Results flagged for a closer look

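Each organ interaction called 1 of the 7 genes. The log2 difference of translatome from transcriptome in Trp73 was 0.13 in brain and -0.96 in kidney, and neither was called. They differed by 1.09 (SE 0.18, edgeR adjusted p = 0.000526, interaction over 12 samples), where 2.35% of all rows were called higher and 4.12% lower. The call was lost in 9 of the 12 fits that left out a library. With the tissue sample as a block the interaction was 1.10 (adjusted p = 5.49e-05). The blocked kidney difference was -0.98 (adjusted p = 4e-05), from a fit whose p-values may be too small. In 1 fit of 21 samples the kidney difference was -0.97 (adjusted p = 0.000183). The brain values overlapped. The 3 kidney translatome values (0.15 to 0.22 RPKM) lay below the 3 transcriptome values (0.32 to 0.37), from 60 and 209 reads. The endothelial difference in Reln was larger in brain than in kidney by 1.74 (SE 0.24, adjusted p = 1.49e-05): all 3 brain EC values (129 to 226 RPKM) lay above all brain translatome values (33.4 to 36.8), and all 3 kidney EC values (12.0 to 18.6) above the kidney translatome values (9.70 to 10.9). Groups of 3 samples were too small to look for single outlying samples.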

How the results depend on the processing

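Most fold changes of the 7 genes kept their direction and side of the threshold: 338 of those under other settings and 326 of those without 1 library, with 23 and 7 gaining a call and 10 and 14 losing it. In brain translatome against transcriptome, 1 gene (Lhx9) was lower with DESeq2, the replicate block or a threshold of 0.05, and 1 (Calb2) was higher in 1 fit of 21 samples; leaving out a library gave 0 to 1 lower. In kidney translatome against transcriptome, the block, which pairs samples of the same tissue, gave 3 higher and 1 lower (Trp73, also in 1 fit and at 0.05), from a fit with infinite prior degrees of freedom whose p-values may be too small. In the Emx1-lineage 1 was lower (Lhx5 in 1 fit, Lhx9 against the transcriptome). In kidney EC 1 was lower (Ebf3 with DESeq2, total counts or 0.05, Trp73 against the transcriptome) and 0 higher with total counts; without 1 library 0 to 1 were higher. In brain EC 1 to 2 were higher without 1 library. Ebf2 in brain EC against kidney EC and Ebf3 between the transcriptomes, both not called, passed with DESeq2 (adjusted p = 2.57e-06 and 8.98e-06). The organ difference in translatome against transcriptome had 0 to 1 higher without 1 library, and that in EC 1 to 2, with 2 (Ebf3 added) at 0.05. Beyond the blocked values given with the results, the block changed no call in translatome against transcriptome or in brain EC against kidney EC. Brain and kidney transcriptomes share numbers (correlations -0.166 to 0.548), and the labels do not say whether they share embryos. Their block called Ebf3 (adjusted p = 0.000174). The Emx1-lineage and brain translatome share only numbers (0.001 to 0.072), as do brain EC (-0.086 to 0.125) and kidney EC (-0.032 to 0.021) and their translatomes. With the block no call of the 7 genes changed in those 3.

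Over all genes, Emx1-lineage calls of higher level fell from 1749 to 1116 with the block, to 1164 with at least 10 counts and to 1110 and 1138 without replicate 2 or 1. The organ difference in translatome against transcriptome went from 472 higher and 829 lower to 1107 and 1562 with DESeq2, and to 255 higher at the lowest without 1 library. At a threshold of 0.05 it called 2107 and 2540, the Emx1-lineage 4278 and 4302, kidney translatome against transcriptome 4704 and 5050, kidney EC 5223 and 5286, brain EC against kidney EC 5864 and 5605, the organ difference in EC 5335 and 3187, and brain translatome against transcriptome 5461 lower.

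Signs turned only among differences that were not called: Calb2 in the Emx1-lineage (-0.0114) and Ebf3 in brain EC (-0.0579) with total counts, Ebf2 in the Emx1-lineage against the transcriptome (0.20) and in the organ difference in EC with RLE factors (-0.0038). Without 1 library, Ebf3 ranged from -0.0428 to 0.19 in brain translatome against transcriptome and from -0.32 to 0.0641 in its organ difference, and Ebf2 from -0.57 to 0.13 there and from -0.35 to 0.73 in the organ difference in EC. Total counts moved the median over genes above 1 CPM from 0.03 to -0.27 in brain EC, from 0.05 to -0.32 in kidney EC and from 0.01 to -0.17 between brain and kidney transcriptomes, so the Ebf3 value of -0.0579 lay above its median. Rescaling RPKM by TMM factors moved 11 of 49 group means by more than 1 SD, and put Ebf3 in brain EC at 13.7. With fewer than 10 reads of Lhx5, Lhx9 and Calb2 in each kidney library, no fold between kidney groups is given for them.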
